A study of Mus musculus with 1298 samples.

Results

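Cells of the Pax7 lineage that had been sorted as Pdgfra-/Cd36+ were compared with cells of the same lineage sorted as Pdgfra+, both sequenced in bulk straight after the sort with no culture. The libraries were chosen by the column names of the deposited count table, which gave 2 Cd36 libraries and 4 Pdgfra+ libraries, 6 of the 18 bulk libraries in a series of 1298 samples. By their labels, the embryos of all 6 libraries were Pax7CreER:R26R-stop-EYFP mice at E16.5, which had been given tamoxifen at E9.5 at 75 µg per g. The text of the study names a younger stage for its fresh Pdgfra+/Thy1- sort, so the age of those Pdgfra+ libraries is uncertain, and a difference of age and one of sort cannot be told apart there. In these embryos Cre is driven by Pax7, so that the YFP reporter marks descendants of cells that expressed Pax7 when tamoxifen was given. Head, limbs and viscera were removed, several embryos were pooled, and YFP+ cells were sorted before the surface markers were used. The libraries of one sort were technical duplicates of pooled embryos, so every p-value below measures the spread between libraries and between sorts, not between embryos. The 4 Pdgfra+ libraries held a Thy1+ and a Thy1- sort, 2 libraries each, but the sign after Thy1 was lost from the column names. They are therefore called 1a, 1b, 2a and 2b (the replicate number and the order of the like-named columns), are listed in that order throughout, and were treated as one group. The other 12 bulk libraries were Pdgfra+ sorts from E14.5 embryos kept in adipogenic differentiation medium (ADM) or in DMEM, 6 of each.

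Brown adipocytes are fat cells that burn fuel to make heat. They store triglyceride in many small droplets, break it down when noradrenaline reaches their beta-adrenergic receptors, and oxidise the released fatty acids in densely packed mitochondria. Uncoupling protein 1 (Ucp1) then lets protons return across the inner mitochondrial membrane without ATP being made. In the trunk of the mouse embryo brown fat, back dermis and skeletal muscle share Pax7-expressing progenitors in the somites, and Pdgfra marks progenitors and dermal fibroblasts of this lineage, whereas Cd36 is a fatty acid transporter of the adipocyte surface.

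The libraries held 24862787 and 32947290 counts in the Cd36 sort and 17320736 to 27594447 in the Pdgfra+ sorts. Levels are given in CPM, the count of a gene per 1000000 counts of its library, scaled by the TMM method of edgeR. Genes encoded in the mitochondrial genome took 20.8% and 15.9% of the counts of the Cd36 libraries and 3.48% to 4.35% of those of the Pdgfra+ libraries. The Cd36 duplicates correlated across genes with r = 0.987 on the log2 scale. Among the Pdgfra+ libraries, 1a resembled 2a (r = 0.984) and 1b resembled 2b (r = 0.985) more than 1a resembled 1b (r = 0.956), and a Cd36 library and a Pdgfra+ library correlated with r between 0.821 and 0.834.

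The genes of the sort were read first, since they check the labels and are no finding. Cd36 measured 1819.7 and 1393 CPM in the Cd36 libraries and 71.7, 194.3, 49.95 and 260.3 CPM in the Pdgfra+ libraries. Pdgfra measured 7.27 and 9.28 CPM against 453.002, 246.1, 454.3 and 319.4 CPM. Both moved as the sort would have it, although Cd36 transcript was present in all 4 Pdgfra+ libraries. Thy1 measured 6.16 and 7.47 CPM in the Cd36 libraries, and among the Pdgfra+ libraries it was high in 1a and 2a (101.6, 5.32, 83.4 and 4.42 CPM in the usual order). The YFP transcript was present throughout, at 149.05 and 154.8 CPM and at 234.8, 178.2, 232.7 and 165.8 CPM, and Pax7 itself was at or under 1.14 CPM in every library.

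The labels give surface markers and no cell type, so markers of brown adipocytes and dermal fibroblasts were read in both sorts. All 8 brown adipocyte markers (Fabp4, Pparg, Adipoq, Plin1, Cidea, Cox7a1, Ucp1, Prdm16) were higher in the Cd36 sort, and their summed level was 7114 to 9276 CPM against 55.04 to 293.9 CPM. The 8 dermal fibroblast markers (Twist2, Crabp1, Thy1, Lum, Dcn, Col1a1, Col3a1, Dpt) summed to 773 and 1144 CPM in the Cd36 libraries and to 35994 to 61525 CPM in the Pdgfra+ libraries, and 6 of the 8 were lower in the Cd36 sort. Within the Pdgfra+ group, Twist2, Crabp1 and Thy1 were far higher in 1a and 2a than in 1b and 2b. Brown adipocyte markers were present at a low level in the Pdgfra+ libraries, and dermal fibroblast markers were present in the Cd36 libraries. In bulk RNA fewer cells of a type and less RNA per cell cannot be told apart.

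**Figure D1:**
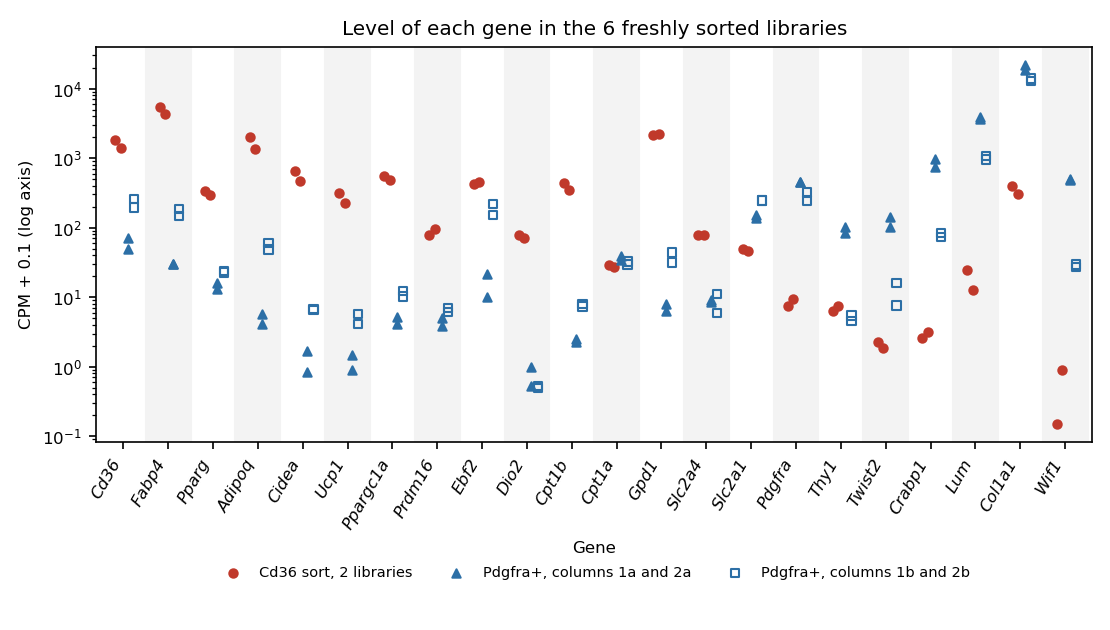
Level of 22 genes in each of the 6 freshly sorted libraries, in CPM + 0.1 on a log axis, with the Cd36 libraries in red and the Pdgfra+ libraries in blue. For Ucp1 the 2 Cd36 libraries lie at 313.3 and 226.8 CPM and the 4 Pdgfra+ libraries at 0.782 to 5.64 CPM, whereas for Cpt1a the groups lie close together.

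Across the whole table the 2 sorts were far apart. Of 17545 genes tested, 1507 (8.59%) were called higher in the Cd36 sort and 1930 (11.0%) were called lower, 3437 (19.6%) in either direction, by edgeR's quasi-likelihood test at a Benjamini-Hochberg adjusted p under 0.01 and a log2 fold change past 1.5. Both Cd36 libraries lay above all 4 Pdgfra+ libraries for 30.9% of the genes tested and below all 4 for 29.3%, so a lack of overlap alone was common. The median log2 fold change over all genes was -0.03. Every count of list members below is to be read beside the 8.59% called higher and 11.0% called lower of all genes tested. Left with 1 Cd36 library, the count of genes called lower fell to 1042 without library 1 and 1047 without library 2. When the 12 cultured libraries shared the estimate of spread, 681 genes were called higher and 1594 lower. In that fit no member was called higher in the lists of lipid droplet, fatty acid uptake, fatty acid and triglyceride synthesis, glucose, citric acid cycle and nuclear respiratory chain genes, 1 in that of beta-oxidation, 2 among adipogenic regulators, 3 among thermogenic genes, 4 among brown fat regulators and 7 among genes of the mitochondrial genome. Of the named genes called here, 62.96% lost their call in that fit and none turned its direction.

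**Figure D2:**
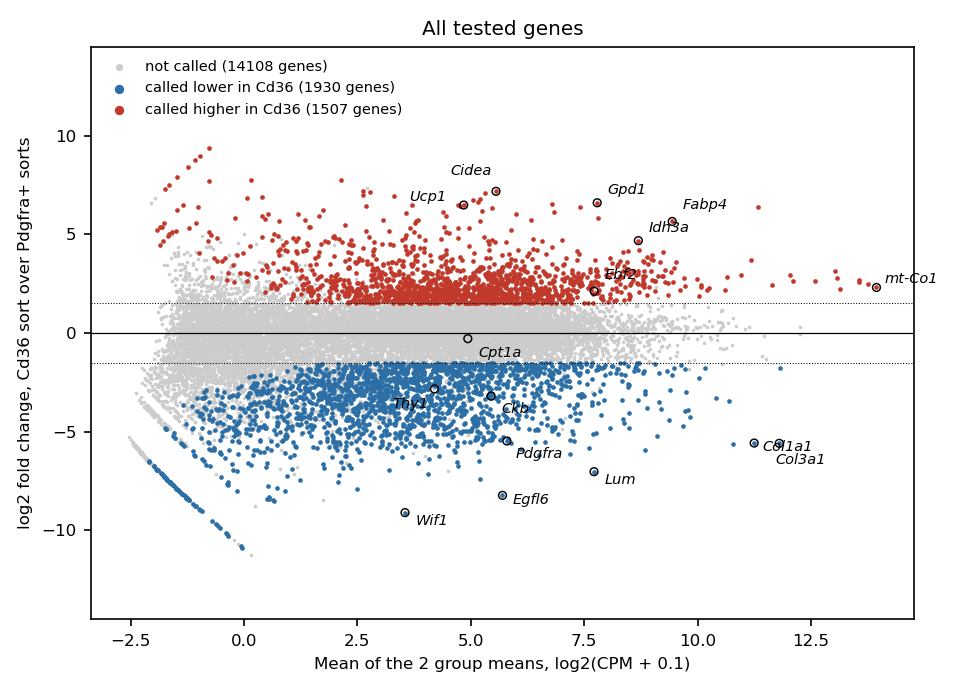
Every tested gene by its mean level over the 2 groups (x axis, log2(CPM + 0.1)) and its log2 fold change of the Cd36 sort over the Pdgfra+ sorts (y axis), with 1507 genes called higher in red, 1930 called lower in blue and dotted lines at 1.5 and -1.5. Ucp1, Cidea, Gpd1 and Fabp4 lie far above 0, and Wif1, Egfl6 and Lum far below.

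The 10 genes that led the rise were Hcar1, Cfd, Cidea, Dio2, Slc36a2, Adig, Plin5, Cidec, Thrsp and Mrap, in order of fold change. They were ranked among called genes with at least 50 CPM in the higher group and no overlap between the groups. Hcar1, the lactate receptor of fat cells, measured 59.1 and 49.1 CPM in the Cd36 libraries and 0, 0.295, 0.279 and 0.438 CPM in the Pdgfra+ libraries, a log2 fold change of 7.76 ± 0.68 (SE, edgeR adjusted p = 1.1e-04). Slc36a2, a proton-coupled amino acid transporter used as a surface marker of brown fat, measured 544 and 380.2 CPM against 2.76, 4.59, 0.447 and 5.56 CPM. Mrap, the accessory protein that brings the ACTH receptor to the surface, measured 340.8 and 373.1 CPM against 0.839, 7.22, 1.17 and 4.77 CPM. The lack of overlap was a condition of the ranking, and for these 3 genes all 4 Pdgfra+ libraries were under 8 CPM. The small adipocyte protein gene Adig stood at 72.5 and 54.8 CPM against 0.210 to 1.09 CPM.

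Of 16 transcription regulators of fat cell formation tested, 10 rose in the Cd36 sort, 1 fell and 5 were not called, with a median log2 fold change of 3.19. Pparg, the nuclear receptor on which fat cell formation depends (GRCm38 chromosome 6, 115360951 to 115490399), measured 339.2 and 296.4 CPM in the Cd36 libraries and 15.9, 22.4, 12.9 and 23.8 CPM in the Pdgfra+ libraries. Its log2 fold change was 4.08 ± 0.25 (edgeR adjusted p = 2.6e-05), and the groups were far apart. Its partner Cebpa measured 111.4 and 149.4 CPM against 4.16, 4.56, 2.01 and 4.90 CPM, a log2 fold change of 5.05 ± 0.33 (adjusted p = 3.0e-05). The Krüppel-like factor Klf15 rose most of the list, from 0.0559 to 0.394 CPM in the Pdgfra+ libraries to 15.5 and 16.2 CPM in the Cd36 libraries. The carbohydrate-responsive factor Mlxipl (log2 fold change 5.59), the fatty acid sensor Ppara (5.18), the retinoid receptor Rxrg (3.98) and the lipogenic factor Srebf1 (2.66) rose with them. The AP-1 factor Fosl2 went the other way, from 93.5 to 111.5 CPM in the Pdgfra+ libraries to 26.1 and 22.5 CPM in the Cd36 libraries. Zfp423, which marks cells committed to fat before they fill with lipid, was at 14.9 and 14.54 CPM against 16.3, 23.1, 12.6 and 21.003 CPM, and the groups overlapped.

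Regulators that set brown fat apart from other fat rose only in part. Of 19 tested, 8 rose, 1 fell and 10 were not called (median 1.18), beside 8.59% called higher and 11.0% called lower of all genes tested. Ppargc1a, the coactivator that drives mitochondrial and thermogenic genes (GRCm38 chromosome 5, 51454250 to 51567726), measured 557 and 482.1 CPM against 4.02, 12.2, 5.03 and 10.2 CPM, a log2 fold change of 6.04 ± 0.45 (edgeR adjusted p = 5.0e-05). Its relative Ppargc1b measured 157.05 and 171.3 CPM against 4.62, 2.89, 6.54 and 2.67 CPM. Prdm16, the zinc-finger protein that holds cells in the brown fat fate (GRCm38 chromosome 4, 154316125 to 154636873), measured 79.4 and 95.5 CPM against 4.93, 6.04, 3.74 and 6.83 CPM, a log2 fold change of 4.02 ± 0.25 (adjusted p = 2.6e-05). These 3 genes did not overlap between the groups, and they were low but not absent in every Pdgfra+ library.

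Irf4, which works with Ppargc1a on thermogenic genes, rose by a log2 fold change of 4.43 ± 0.35 (edgeR adjusted p = 6.6e-05). Mecom (Prdm3, a relative of Prdm16) and the orphan receptor Esrrg rose by 3.43 and 3.42, but with a Cd36 library left out their adjusted p reached 0.037 and 0.013. Tbx15 fell, from 39.3 to 65.5 CPM in the Pdgfra+ libraries to 13.04 and 13.5 CPM in the Cd36 libraries (log2 fold change -1.96 ± 0.29), and its adjusted p was 0.020 and 0.019 without Cd36 library 1 and 2. Ebf2, a pioneer factor of brown fat that also marks committed precursors, did not pass: it measured 419.6 and 458.9 CPM in the Cd36 libraries and 9.93, 153.1, 21.5 and 219.4 CPM in the Pdgfra+ libraries (adjusted p = 0.13). Its level in the Pdgfra+ group was low in 1a and 2a and closer to the Cd36 libraries in 1b and 2b. With 1a and 2a alone as the Pdgfra+ group, a split chosen after the data were seen, Ebf2 passed with a log2 fold change of 4.82. Zic1, Lhx8, Ebf3 and Zfp516 overlapped between the groups.

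The thermogenic list gave some of the widest gaps. Of 25 genes tested, 15 rose and 1 fell, with a median log2 fold change of 3.43. Ucp1 (GRCm38 chromosome 8, 83290352 to 83298452) measured 313.3 and 226.8 CPM in the Cd36 libraries and 1.36, 5.64, 0.782 and 4.03 CPM in the Pdgfra+ libraries, a log2 fold change of 6.49 ± 0.67 (edgeR adjusted p = 2.4e-04). Dio2, the deiodinase that makes active thyroid hormone inside the cell, measured 78.3 and 71.6 CPM against 0.420, 0.427, 0.894 and 0.394 CPM (7.17 ± 0.33, adjusted p = 1.2e-05). Cidea, a lipid droplet protein found in brown fat, measured 652 and 474.4 CPM against 1.57, 6.399, 0.726 and 6.61 CPM (7.18 ± 0.78, adjusted p = 3.1e-04). No Pdgfra+ library came near a Cd36 library for any of the 3. The potassium channel gene Kcnk3 measured 108.8 and 131.02 CPM against 0.385 to 2.71 CPM.

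Several genes associated with heat production were not called higher. Ckb, the creatine kinase of the futile creatine cycle, was the only gene of the thermogenic list to fall, from 155.5, 120.3, 134.9 and 115.7 CPM in the Pdgfra+ libraries to 14.7 and 14.1 CPM (log2 fold change -3.19 ± 0.19, edgeR adjusted p = 2.3e-05). Elovl3, the fatty acid elongase that marks mature or cold-exposed brown fat, was at 1.74 and 0.804 CPM in the Cd36 libraries and at 0.140, 0, 0 and 0.131 CPM in the Pdgfra+ libraries (adjusted p = 0.019). Ucp2 stood at 44.3 and 41.1 CPM against 42.4, 85.4, 45.9 and 104.6 CPM, with overlap. Per kilobase of exon, the mean level of Ucp1 was 165.1 CPM in the Cd36 sort beside 6.11 CPM for Ucp2. The length joins the exons of all annotated transcripts of a gene. A level per kilobase, here and below, can therefore be too low, by an amount that differs between genes. In the Pdgfra+ sorts the order was the other way, 1.81 CPM per kilobase for Ucp1 and 9.95 for Ucp2.

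Of 19 genes that coat, fill and empty the lipid droplet, 11 rose, none fell and 8 were not called (median 2.54). Plin1, the perilipin that guards the droplet, measured 100.3 and 101.1 CPM against 1.12, 2.49, 1.17 and 2.80 CPM (5.72 ± 0.39, edgeR adjusted p = 3.5e-05). Plin5, the perilipin that ties droplets to mitochondria, measured 111.7 and 101.6 CPM against 0.105, 1.67, 0.112 and 1.40 CPM, and Cidec, which fuses droplets, 358.4 and 410.7 CPM against 1.01, 6.20, 1.12 and 5.47 CPM. The lipase genes were as far apart: Pnpla2 (adipose triglyceride lipase) measured 972 and 924 CPM against 5.87, 22.2, 7.66 and 18.2 CPM, and Lipe (hormone-sensitive lipase) 596 and 579.6 CPM against 6.43, 14.4, 8.61 and 14.1 CPM. Both lipases and all 3 droplet proteins were separated between the groups by more than 10-fold. Plin2 and Plin3, perilipins of many cell types, did not reach the fold limit, with log2 fold changes of 1.45 and 1.19.

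Of 20 genes of fatty acid uptake and binding tested, 5 rose and 2 fell (median 0.95), beside 8.59% and 11.0% of all genes tested. The share that fell was thus near that of all genes. Fabp4, the fatty acid binding protein of fat cells (GRCm38 chromosome 3, 10204088 to 10208576), measured 5515 and 4343 CPM against 29.5, 146.3, 29.9 and 185.4 CPM, a log2 fold change of 5.66 ± 0.80 (edgeR adjusted p = 0.0011). The glycerol channel Aqp7 (5.36), the acyl-CoA synthetase Acsl1 (4.65), the acyl-CoA binding protein Dbi (4.10) and Fabp5 (2.12) rose too. Lpl, the lipase that frees fatty acids from circulating triglyceride, was high in both sorts and missed the limit, at 1379.6 and 1076 CPM against 98.97, 367.4, 92.9 and 399.5 CPM (adjusted p = 0.016). Acsl6, called lower, was at or under 2.24 CPM everywhere and its adjusted p reached 0.051 with a library left out.

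Of 28 genes of fatty acid and triglyceride synthesis tested, 12 rose, 2 fell and 14 were not called (median 1.03). Among all genes tested 8.59% rose and 11.0% fell, so the share that fell was not above that of all genes. Gpd1, which makes glycerol 3-phosphate for the triglyceride backbone, measured 2145 and 2204 CPM against 7.87, 31.5, 6.20 and 43.7 CPM (6.60 ± 0.80, edgeR adjusted p = 4.9e-04). Pck1, the glyceroneogenic enzyme, measured 301.3 and 200.7 CPM against 1.01, 4.63, 1.01 and 4.77 CPM, and the pyruvate carboxylase gene Pcx 647 and 714 CPM against 32.9, 38.6, 33.6 and 47.999 CPM. Dgat1, which adds the last fatty acid, measured 138.4 and 168.9 CPM against 17.1, 12.7, 12.4 and 12.1 CPM. The groups were wide apart for all 4 of these genes. By contrast Fasn, the fatty acid synthase, stood at 85.8 and 101.7 CPM against 140.7, 141.1, 150.5 and 193.5 CPM, below every Pdgfra+ library but within the fold limit (log2 fold change -0.74 ± 0.18). Acly (-0.83), Acaca (0.57) and Scd2 (-1.09) were not called either. Acacb, the acetyl-CoA carboxylase at the mitochondrial surface, rose by 4.73 and the lipogenic protein Thrsp by 6.72. Both desaturases of polyunsaturated fatty acids fell, Fads1 by a log2 fold change of -1.59 and Fads2 of -2.50, and both calls were lost without either Cd36 library (adjusted p 0.060 and 0.043 for Fads1, 0.029 and 0.022 for Fads2).

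Of 23 glucose genes tested, 7 were higher and 3 lower, beside 8.59% and 11.0% of all genes tested. The share called lower was thus near that of all genes. Slc2a4, the insulin-regulated glucose transporter Glut4, measured 78.1 and 77.4 CPM against 8.43, 5.87, 8.88 and 11.1 CPM (3.18 ± 0.24, edgeR adjusted p = 5.8e-05). Slc2a1, the basal transporter Glut1, measured 49.6 and 46.6 CPM against 139.4, 245.3, 153.2 and 245.9 CPM (-2.03 ± 0.30, adjusted p = 0.0013), and its adjusted p was 0.017 and 0.020 without Cd36 library 1 and 2. Per kilobase of exon the mean level of Slc2a4 was 22.4 CPM and that of Slc2a1 13.7 CPM in the Cd36 sort, against 2.46 and 55.9 CPM in the Pdgfra+ sorts. The glycolytic genes Aldoa (2.84) and Eno1 (2.75) rose. Ldhb, the lactate dehydrogenase subunit of oxidative tissues, rose by 3.23 (adjusted p 0.027 and 0.022 without a Cd36 library), whereas Ldha stood at 2245 and 1946 CPM against 1718, 1440.3, 1878 and 1496 CPM and was not called. Hk1, the hexokinase of most tissues, fell from 19.1 to 29.9 CPM in the Pdgfra+ libraries to 2.47 and 3.99 CPM in the Cd36 libraries, and the lactate exporter Slc16a3 from 38.2 to 46.9 CPM in the Pdgfra+ libraries to 2.76 and 2.28 CPM in the Cd36 libraries (-4.05 ± 0.23, adjusted p = 1.8e-05).

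Of 24 fatty acid oxidation genes tested, 21 were higher and none lower (median 3.06), and with the cultured libraries in the fit 1 was called higher. Eci1, Acaa2, Acadl, Acadm, Acads and Etfb led the list, all enzymes or electron carriers of the mitochondrial pathway. Acadl, a long-chain acyl-CoA dehydrogenase, measured 1685 and 1327 CPM against 62.8, 96.4, 64.7 and 109.3 CPM (4.18 ± 0.26, edgeR adjusted p = 2.6e-05). Acadm, which acts on medium chains, measured 729.9 and 614 CPM against 36.8, 45.4, 32.5 and 52.5 CPM. Both genes kept the libraries of each sort in a narrow band with a wide gap between the sorts. The genes not called were Cpt1a, Acaa1a and Eci2, the last 2 with log2 fold changes of 0.87 and 0.89. Carnitine palmitoyltransferases admit fatty acids to the pathway, and 2 forms of the first of them were measured: the muscle and brown fat form Cpt1b measured 435.7 and 351.9 CPM against 2.38, 7.25, 2.18 and 7.83 CPM (6.32 ± 0.55, adjusted p = 1.1e-04), whereas the liver form Cpt1a stood at 28.5 and 26.7 CPM against 34.2, 32.5, 38.4 and 29.4 CPM and was not called. Per kilobase of exon, Cpt1b was at 116.8 CPM and Cpt1a at 3.61 CPM in the Cd36 sort, and at 1.46 and 4.402 CPM in the Pdgfra+ sorts.

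Other pairs of tissue isoforms were read in the same way, and of the 15 isoform genes tested 10 rose and none fell. Cox7a1 and Cox8b are the heart, muscle and brown fat forms of cytochrome oxidase subunits, and Cox7a2 and Cox8a are the general forms. Cox7a1 measured 266.6 and 220.9 CPM against 1.47, 3.05, 1.90 and 4.42 CPM (6.49 ± 0.41, edgeR adjusted p = 2.6e-05). Cox8b measured 67.5 and 46.8 CPM against 0.0699, 1.28, 0 and 1.14 CPM (6.46 ± 0.98), with an adjusted p of 0.015 and 0.010 without Cd36 library 1 and 2. The general forms remained the more abundant per kilobase in both sorts: in the Cd36 sort Cox7a2 was at 937 CPM per kilobase beside 455.7 for Cox7a1, and Cox8a at 3046 beside 158.7 for Cox8b. The muscle form Cox6a2 was at 0 and 0.0670 CPM in the Cd36 libraries, while the general form Cox6a1 measured 1462 and 1235 CPM, and Cox4i2 stood at 0.145 and 0.737 CPM beside 2736 and 2281 CPM for Cox4i1. Of the ADP/ATP carriers, Slc25a5 rose by 2.17 and Slc25a4, the heart and muscle form, was at 815 and 782 CPM against 478.1, 478.8, 525.7 and 510.6 CPM (log2 fold change 0.68, not called).

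The citric acid cycle and pyruvate dehydrogenase list rose with 23 of 25 genes, none lower (median 2.83). Idh3a, the catalytic subunit of NAD-dependent isocitrate dehydrogenase, measured 2338 and 1859 CPM against 66.3, 88.6, 74.3 and 97.1 CPM (4.68 ± 0.20, edgeR adjusted p = 1.2e-05). Cs, the citrate synthase used as a measure of mitochondrial content, measured 2370.2 and 2103 CPM against 213.04, 210.2, 224.01 and 257.2 CPM. The log2 fold change of Cs was 3.31 ± 0.14, and neither gene overlapped between the sorts. Pdk4, the kinase that shuts pyruvate out of the cycle, rose by 4.78 ± 0.66 (adjusted p = 9.7e-04). Pdp1, a phosphatase that opens it again, was at 8.77 and 10.5 CPM against 12.8, 26.6, 16.7 and 25.9 CPM and was not called.

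Respiratory chain genes rose in every complex. Called higher were 35 of 36 nuclear genes of complex I, 4 of 4 of complex II, 10 of 10 of complex III with cytochrome c, 11 of 12 of complex IV and 11 of 16 of complex V, with none lower and median log2 fold changes of 2.64, 2.77, 3.50, 2.63 and 2.25. The highest of each were Ndufb9 (3.59 ± 0.20), Sdhd (3.26 ± 0.14), Cyc1 (3.98 ± 0.13), Cox5a (4.12 ± 0.19) and Atp5k (3.06 ± 0.13). Cyc1, the heme-carrying cytochrome c1, measured 2214 and 1847 CPM against 131.5, 128.02, 123.5 and 131.3 CPM. Cox5a measured 1639.8 and 1089 CPM against 71.1, 76.4, 80.4 and 86.8 CPM. With the 12 cultured libraries in the fit none of the genes of the 5 complexes was called. The exceptions within complex IV and complex I were Cox6c, at 1185 and 903 CPM against 378.6, 157.5, 506.4 and 170.6 CPM, and Ndufa3, with a log2 fold change of 1.29. 

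Of the 5 genes of complex V that were not called, 3 encode the same subunit. Brown fat is known for little ATP synthase relative to its respiratory chain and for a low level of subunit c, the proton-carrying ring, which Atp5g1, Atp5g2 and Atp5g3 each encode. All 3 missed the fold limit: Atp5g1 measured 422.5 and 459.3 CPM against 170.1, 149.8, 208.5 and 174.8 CPM, Atp5g2 198.8 and 172.8 CPM against 74.3, 40.5, 103.1 and 56.6 CPM, and Atp5g3 241.7 and 213.3 CPM against 140.96, 159.6, 143.4 and 141.4 CPM. Their log2 fold changes were 1.33 ± 0.16, 1.44 ± 0.33 and 0.64 ± 0.13, whereas that of the catalytic subunit gene Atp5b was 2.43 ± 0.18 (8236 and 6525 CPM against 1523, 1168, 1603 and 1183 CPM). The difference between the subunits itself was not tested. Per kilobase of exon, the mean levels in the Cd36 sort were 89.8, 110.9 and 104.3 CPM for the c subunit genes and 1742 CPM for Atp5b. In the Pdgfra+ sorts they were 35.8, 40.98 and 67.1 CPM beside 323.1 CPM. The joined exon lengths were 4912, 1675 and 2181 bases for Atp5g1, Atp5g2 and Atp5g3 and 4237 bases for Atp5b. They join all annotated transcripts, so the ratio of subunit c to Atp5b transcripts cannot be read from these levels. The coupling factor Atp5j had a log2 fold change of 0.35 ± 0.13. Atpif1, the inhibitor that keeps ATP synthase from running backwards, was at 98.8 and 97.7 CPM against 223.7, 157.4, 294.98 and 168.7 CPM, below every Pdgfra+ library but not called (-1.10 ± 0.27, edgeR adjusted p = 0.014).

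**Figure D3:**
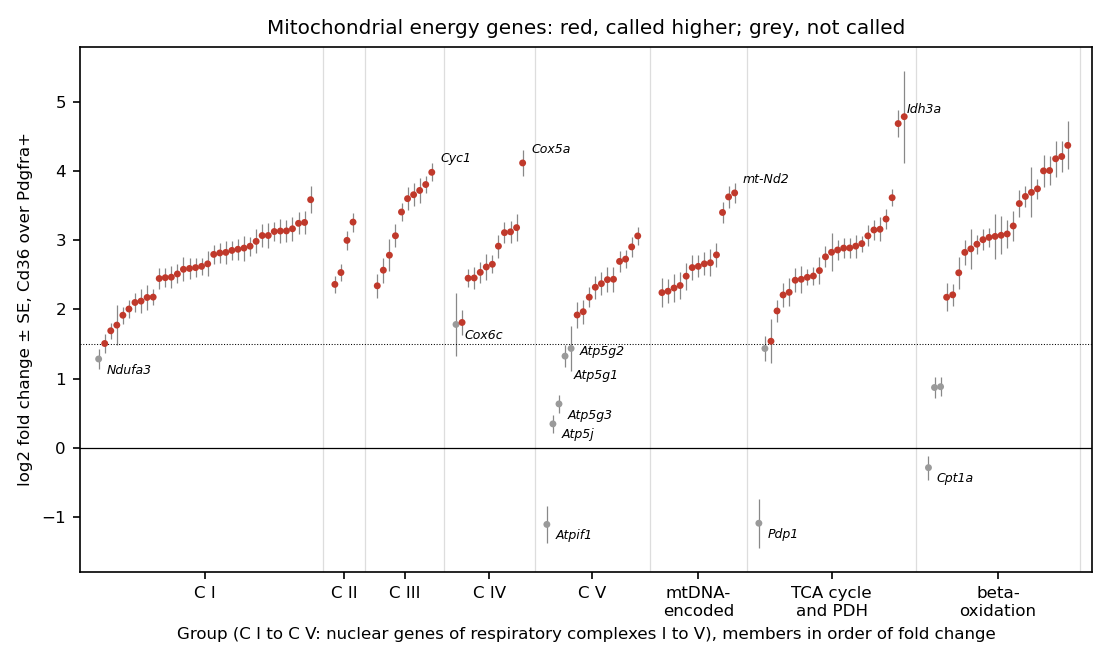
Log2 fold change ± SE of every tested nuclear gene of respiratory complexes I to V, of the genes of the mitochondrial genome and of the citric acid cycle and beta-oxidation lists, in order within each group, with genes called higher in red and those not called in grey. Most points lie above the dotted line at 1.5, and the c subunit genes of ATP synthase, Atp5j, Atpif1, Pdp1 and Cpt1a lie below it.

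Promoters of the nuclear respiratory chain genes were searched for the site of NRF1, a factor known to bind many of them, because these genes moved together. The palindrome made of GCGCA and its reverse complement TGCGC, read on both strands, stood within the 250 bases before the start site in 4 of 65 respiratory chain genes (6.15%), against 1.604% of the tested genes with a promoter in the RefSeq table (GRCm38.p6). The share was 1.89% among genes called higher and 0.687% among genes called lower. Of the 4 genes with a match, Atp5k, Cox6a1 and Ndufa11 were called higher and Atp5g2 was not. Their sequences are given 5′ to 3′ on the strand of the gene with the site in capitals and some flank on either side, at chr5:108434415-108434474 for Atp5k, chr5:115349086-115349145 for Cox6a1 and chr15:102671055-102671114 for Atp5g2 (all on the minus strand), and at chr17:56717677-56717736 for Ndufa11 (plus strand).
Atp5k: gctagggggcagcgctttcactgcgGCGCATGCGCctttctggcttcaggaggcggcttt
Cox6a1: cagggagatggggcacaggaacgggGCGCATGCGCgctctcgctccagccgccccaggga
Ndufa11: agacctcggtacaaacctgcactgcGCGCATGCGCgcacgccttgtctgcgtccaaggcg
Atp5g2: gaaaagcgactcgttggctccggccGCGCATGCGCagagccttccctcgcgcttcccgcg
The estrogen-related receptor letters TCAAGGTCA stood in 1 of the 65 promoters, that of Atp5g3, and in 0.316% of those of all genes tested. A match is a description of letters, and binding was not measured. Nrf1 itself was at 60.6 and 68.04 CPM against 69.4, 56.1, 75.8 and 58.3 CPM, with overlap between the sorts.

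All 13 protein genes of the mitochondrial genome rose too, with a median log2 fold change of 2.62 that lay close to that of the nuclear complexes. mt-Nd2 rose by 3.68 ± 0.15 and mt-Nd6, the gene on the other strand, by 3.63 ± 0.16 (edgeR adjusted p = 1.2e-05 for both). mt-Co2 measured 26908 and 18413 CPM against 3256, 3027, 3420.3 and 3417 CPM. The share of counts taken by these genes enters the scaling of all others, and with them left out 1474 genes were called higher and 1946 lower.

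Genes that build and shape mitochondria rose less uniformly, with 16 of 28 higher and none lower (median 1.58). Among all genes tested 8.59% were higher and 11.0% lower. Chchd10, a protein of the cristae junctions, stood far above the others, at 1125 and 1027 CPM against 4.27, 16.2, 3.69 and 21.6 CPM (6.55 ± 0.73, edgeR adjusted p = 3.4e-04). Immt, the core of the same complex, rose by 2.83 ± 0.15, and Apoo and Chchd3, also of that complex, by 3.24 and 2.87. Phb2, a prohibitin of the inner membrane, rose by 2.67 and the ion exchanger Letm1 by 2.97. The fission genes Fis1, Mff and Dnm1l did not pass, with log2 fold changes of 0.09, 0.63 and 0.60, and neither did the outer membrane channel Vdac1 (0.92).

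**Figure D4:**
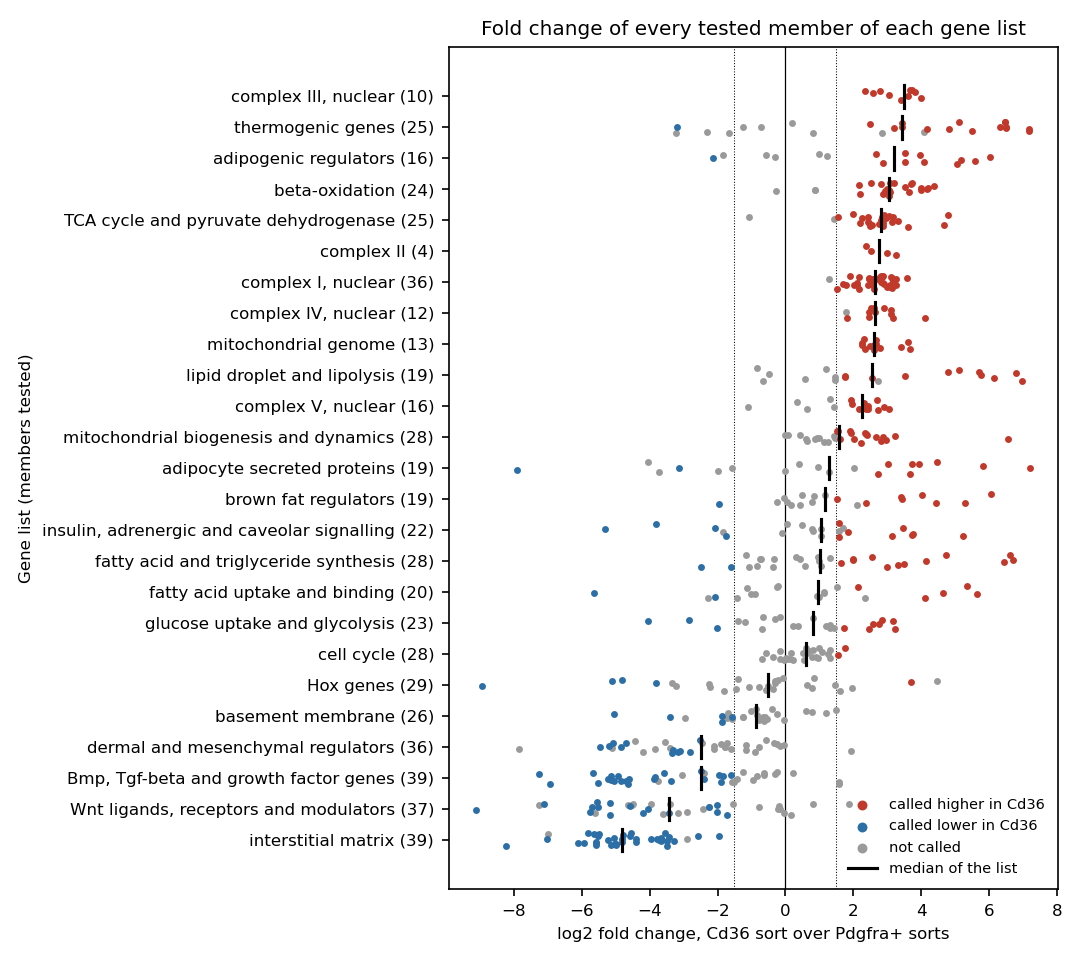
Log2 fold change of the Cd36 sort over the Pdgfra+ sorts for every tested member of each gene list, with members called higher in red, called lower in blue and not called in grey, and the black bar at the list's median. Lists of mitochondrial and lipid genes lie to the right, with complex III at 3.50, and the interstitial matrix lies farthest left at -4.80.

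Of 19 genes of secreted proteins of fat cells, 8 were higher and 2 lower, beside 8.59% and 11.0% of all genes tested. Adipoq, the hormone adiponectin, measured 2010.1 and 1356 CPM against 5.60, 48.4, 3.97 and 60.1 CPM (5.83 ± 1.06, edgeR adjusted p = 0.0036), and its adjusted p was 0.021 and 0.016 without Cd36 library 1 and 2. Cfd, the complement factor adipsin, measured 83.4 and 54.3 CPM against 0, 0.788, 0 and 1.01 CPM, with an adjusted p of 0.012 without Cd36 library 1. For both genes the Pdgfra+ libraries 1b and 2b were above 1a and 2a. Nampt, the NAD-making enzyme also found in plasma, rose by 3.72 ± 0.17, and the stress hormone Gdf15 by 4.46 ± 0.53. Nrg4, a growth factor released by brown fat, rose by 3.92 ± 0.56 (adjusted p = 0.011 without Cd36 library 1). Leptin (Lep) was at 1.55 and 1.57 CPM against 1.05, 0.394, 0 and 0.0438 CPM and was not called. Angptl2 fell (log2 fold change -3.13 ± 0.35), and the chemokine gene Cxcl14 measured 0.630 and 0.0335 CPM against 139.6, 21.5, 114.4 and 13.4 CPM, a call that was lost without either Cd36 library (adjusted p 0.029 and 0.053).

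The signalling list held 8 higher and 4 lower genes of 22 tested, beside 8.59% and 11.0% of all genes tested. Prkar2b, the regulatory subunit of protein kinase A that is abundant in fat, measured 368.6 and 360.2 CPM against 6.3995, 12.6, 8.10 and 11.3 CPM (5.25 ± 0.27, edgeR adjusted p = 1.4e-05). Pde3b, the phosphodiesterase through which insulin restrains lipolysis, rose by 3.76 ± 0.21, and Adrb1, a beta-adrenergic receptor, from 0.820 to 1.62 CPM in the Pdgfra+ libraries to 15.9 and 18.8 CPM in the Cd36 libraries. Ptger3, the prostaglandin E receptor that lowers cAMP, was at 1.07 and 0 CPM in the Cd36 libraries and at 19.4, 19.2, 21.4 and 19.9 CPM in the Pdgfra+ libraries. The adenylyl cyclase Adcy4 measured 2.42 and 0.436 CPM against 21.9, 15.3, 20.7 and 19.95 CPM, and the growth hormone receptor Ghr 35.8 and 33.8 CPM against 128.3, 124.9, 88.5 and 128.7 CPM. Ptger3, Adcy4 and Ghr were thus all lower, Ptger3 with an adjusted p of up to 0.013 when a Pdgfra+ library was left out. The caveolar coat genes parted: Cavin2 rose by 3.47 ± 0.14 and Cavin3 fell (-2.09 ± 0.26), while Cav1 was at 822 and 752 CPM against 854, 69.97, 848 and 47.4 CPM, split between the Pdgfra+ libraries.

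Dermal and mesenchymal genes formed the other side of the comparison. Of 36 dermal and mesenchymal regulators tested, none was higher and 11 were lower in the Cd36 sort (median -2.49). Osr1, a zinc-finger factor of connective tissue, measured 0.679 and 0.302 CPM against 20.8, 24.7, 16.8 and 22.6 CPM (-5.46 ± 0.43, edgeR adjusted p = 6.9e-05), and its relative Osr2 1.16 and 3.25 CPM against 77.4, 40.2, 72.7 and 41.4 CPM. Snai1, a driver of the mesenchymal state, measured 2.13 and 5.76 CPM against 198.3, 69.8, 246.3 and 73.4 CPM, and Prrx1, a limb and dermal homeobox factor, 28.1 and 29.2 CPM against 390.1, 187.2, 417.9 and 170.5 CPM. The groups did not overlap for these 4 genes. The calls of Snai1 and Prrx1 were lost without either Cd36 library (adjusted p 0.020 and 0.011, 0.016 and 0.016), and the list then held 2 genes called lower. Twist2, a dermal regulator, measured 2.13 and 1.74 CPM in the Cd36 libraries and 143.2, 15.9, 100.9 and 7.48 CPM in the Pdgfra+ libraries. Despite the lack of overlap it was not called (adjusted p = 0.020), with 1a and 2a far above 1b and 2b, and it was called by DESeq2 and with either pair of Pdgfra+ columns alone. Crabp1, a retinoic acid binding protein of dermal cells, measured 2.47 and 3.05 CPM against 747, 73.8, 963 and 84.5 CPM (-7.39 ± 1.52, adjusted p = 0.0063), and its adjusted p was 0.060 without Cd36 library 1 as well as without library 2.

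Interstitial matrix was the most uniform of the lists that fell. Of 39 genes tested, 37 were lower and none higher, with a median log2 fold change of -4.80, and 30 were called lower in the fit with the cultured libraries. Col1a1, the main fibrillar collagen chain (GRCm38 chromosome 11, 94936224 to 94953042), measured 395.3 and 308.3 CPM against 21890.0, 12735, 18460.0 and 14031 CPM (-5.58 ± 0.33, edgeR adjusted p = 2.2e-05). Col3a1 measured 625 and 401.5 CPM against 30341, 18992, 28362 and 21205 CPM. Both collagens were therefore still measured in the Cd36 libraries, 47.7-fold and 48.2-fold lower, and the sort gene Pdgfra was 44.4-fold lower. Which cells of the Cd36 sort held these transcripts was not tested. Lum, a proteoglycan that spaces collagen fibrils, measured 24.1 and 12.7 CPM against 3616, 1072, 3939.8 and 951 CPM (-7.03 ± 0.93), and its adjusted p was 0.014 without Cd36 library 2. Egfl6, a matrix protein of embryonic skin, measured 3.54 and 2.38 CPM against 1411, 376.5, 1360.2 and 379.8 CPM (-8.23 ± 0.94, adjusted p = 3.8e-04). The microfibril protein Mfap2 fell too (log2 fold change -6.12 ± 0.34), as did Dcn (-5.94 ± 0.55) and Thbs2 (-5.82 ± 0.52). Tnxb and Thbs4 were the members not called, at 10.2 and 11.4 CPM against 19.5, 148.1, 20.3 and 133.3 CPM and at 1.74 and 2.18 CPM against 20.1, 423.9, 51.4 and 508.7 CPM.

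Basement membrane genes, which many cell types including fat cells make, differed less. Of 26 tested, 5 were lower and none higher (median -0.86), beside 11.0% lower and 8.59% higher of all genes tested. Lama2, a laminin chain of mesenchyme and muscle, measured 6.54 and 2.98 CPM against 179.6, 150.5, 159.2 and 142.7 CPM (-5.06 ± 0.37, edgeR adjusted p = 4.6e-05). Nid1, which links laminin to collagen IV, fell (log2 fold change -3.39 ± 0.41, adjusted p = 0.010 without Cd36 library 2). Itgb1, Agrn and Lamb2 had log2 fold changes of -1.86, -1.87 and -1.59, and the adjusted p of the last 2 was 0.012 and 0.012 without Cd36 library 1 and 0.012 and 0.015 without library 2. The collagen IV chains Col4a1 and Col4a2 were at 511.6 and 559 CPM against 639.8, 801, 767 and 1046 CPM and at 144.9 and 215.9 CPM against 275.004, 284.1, 150.4 and 338.7 CPM, and neither was called.

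Wnt signals hold back fat cell formation and guide the dermis. Of 37 genes of the pathway tested, 16 were lower in the Cd36 sort, none was higher and 21 were not called (median -3.42), and the count of lower genes was 9 without Cd36 library 1 and 7 without library 2. Among ligands, Wnt5a measured 16.6 and 19.3 CPM against 105.2, 65.4, 114.996 and 57.4 CPM (-2.25 ± 0.34, edgeR adjusted p = 0.0015, and 0.023 and 0.018 without Cd36 library 1 and 2), and Wnt2 0.533 and 0.369 CPM against 29.97, 27.99, 26.7 and 12.6 CPM (-5.76 ± 0.52). Wnt10b had no read in either Cd36 library and 0.769, 0.689, 0.782 and 0.481 CPM in the Pdgfra+ libraries, at least 5.54-fold lower at a floor of 3 reads per library. Its call was lost without either Cd36 library (adjusted p 0.020 and 0.027) and without Pdgfra+ library 1b or 2a. The receptor Ror1, through which Wnt5a acts, measured 0.776 and 0.536 CPM against 22.8, 43.5, 19.4 and 34.8 CPM (-5.53 ± 0.50, adjusted p = 1.2e-04). Of the secreted modulators, the antagonist Sfrp2 and the agonist Rspo3 fell, with log2 fold changes of -5.55 ± 0.41 and -5.70 ± 0.73, the latter with an adjusted p of 0.012 without Cd36 library 2. The antagonist Wif1 measured 0.0485 and 0.804 CPM in the Cd36 libraries and 481.3, 29.2, 504.1 and 27.3 CPM in the Pdgfra+ libraries. It had the largest fall among the genes ranked by the naming rule (-9.10 ± 2.07, adjusted p = 0.0097), with 1a and 2a far above 1b and 2b, and its adjusted p was 0.075 and 0.056 without Cd36 library 1 and 2 and up to 0.015 without a Pdgfra+ library. The target gene Axin2 stood at 0.679 and 1.11 CPM against 19.3, 1.12, 16.7 and 1.18 CPM and was not called, and the receptors Fzd4 (96.2 and 104.99 CPM against 10.3, 40.96, 8.05 and 49.6 CPM) and Lrp6 (103.2 and 106.7 CPM against 48.8, 78.04, 50.5 and 62.2 CPM) lay higher in the Cd36 libraries but did not pass.

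Growth factor genes of the Bmp, Tgf-beta, Pdgf, Fgf and Igf families were lower in 23 of 39 cases and higher in none (median -2.50). Without Cd36 library 1 and 2 the count was 15 and 13. Tgfb2 measured 0.921 and 1.27 CPM against 24.7, 59.8, 27.8 and 45.1 CPM (-5.15 ± 0.51, edgeR adjusted p = 2.0e-04), and Tgfb3 1.31 and 3.32 CPM against 39.6, 115.2, 52.1 and 142.9 CPM (adjusted p = 0.016 without Cd36 library 1). Pdgfrb, the other Pdgf receptor, measured 3.102 and 1.91 CPM against 181.6, 57.04, 187.7 and 76.3 CPM (-5.66 ± 0.70, adjusted p = 0.011 without Cd36 library 2). The Bmp antagonist Grem1 measured 0.145 and 0.369 CPM against 9.62, 16.6, 8.66 and 15.1 CPM, and Fgf7 0.242 and 0 CPM against 13.8, 23.5, 12.7 and 16.6 CPM. All 5 genes were at or under 3.32 CPM in the Cd36 libraries. Igfbp6, which binds Igf2, fell (log2 fold change -6.94 ± 0.67). Pdgfa and Pdgfc stood higher in the Cd36 libraries, at 13.7 and 17.6 CPM against 2.76, 6.56, 3.97 and 7.61 CPM and 10.4 and 13.7 CPM against 3.29, 5.87, 1.01 and 5.86 CPM, but were not called.

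Surface genes used elsewhere to find progenitors fell as well. Cd34 measured 16.1 and 12.53 CPM against 359.9, 516.8, 362.9 and 417.3 CPM (-4.85 ± 0.26, edgeR adjusted p = 1.4e-05). Ly6a (Sca-1) measured 3.39 and 1.14 CPM against 82.04, 60.3, 68.7 and 35.4 CPM (-4.79 ± 0.58, adjusted p = 4.9e-04). Among the 10 genes with the largest falls were also the axon guidance receptor Robo2, the protocadherin Pcdh18, the carboxypeptidase Cpz and the prostaglandin synthase Ptgs2, which measured 2.57 and 2.68 CPM against 242.9, 278.8, 262.7 and 187.97 CPM (-6.53 ± 0.26, adjusted p = 1.2e-05). Robo2 lost its call without either Cd36 library (adjusted p 0.071 and 0.056) and Cpz without library 2 (0.012). Rgcc, a regulator of the cell cycle, rose from 82.2 to 111.6 CPM in the Pdgfra+ libraries to 585 and 533.996 CPM in the Cd36 libraries (2.47 ± 0.16, adjusted p = 2.7e-05).

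Proliferation genes were expressed in both sorts. Of 28 cell cycle genes tested, 2 rose and none fell (median 0.61), beside 8.59% of all genes tested called higher and 11.0% lower. Rrm2, a subunit of ribonucleotide reductase, measured 454.8 and 534.1 CPM against 169.05, 104.3, 200.2 and 111.8 CPM (1.76 ± 0.27), and Mki67 277.01 and 337.7 CPM against 110.9, 71.05, 155.5 and 83.4 CPM (1.55 ± 0.29). Neither was called without Cd36 library 1 (edgeR adjusted p 0.011 and 0.022) or library 2 (0.019 and 0.044). Top2a, at 279.9 and 368.1 CPM against 258.2, 128.1, 309.1 and 160.3 CPM, and Pcna, at 191.5 and 211.6 CPM against 181.7, 160.6, 228.8 and 159.6 CPM, overlapped between the groups.

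Hox genes, which record position along the body, were mostly low. Of 29 tested, 1 was higher and 4 were lower, beside 8.59% and 11.0% of all genes tested, so the share called lower was near that of all genes. Hoxa5 measured 19.2 and 23.8 CPM against 1.26, 2.46, 0.224 and 2.54 CPM (3.71 ± 0.68), and its neighbour Hoxa4, at 17.3 and 17.8 CPM against 0.140, 1.38, 0 and 1.58 CPM, fell just short of the limit (edgeR adjusted p = 0.010). Hoxa10 had no read in either Cd36 library and 4.90, 1.44, 2.79 and 0.656 CPM in the Pdgfra+ libraries, at least 19.9-fold lower at a floor of 3 reads per library. Hoxc10 stood at 0.145 and 0.0670 CPM against 7.41, 2.1003, 4.25 and 0.963 CPM and Hoxd3 at 0.533 and 0.201 CPM against 4.16, 3.51, 6.20 and 6.26 CPM. The call of Hoxa5 was lost without Cd36 library 1 (0.020) or 2 (0.029), those of Hoxa10 and Hoxc10 without any of several libraries (adjusted p up to 0.039 and 0.073), and that of Hoxd3 without Cd36 library 2 (0.015). The fourth gene called lower, Hoxd10, was at or under 0.853 CPM in every library and lost its call without any one of the 6 libraries (adjusted p up to 0.047).

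Markers of other cells were present in both sorts, at summed levels that differed between the types. Macrophage and leukocyte markers summed to 18.3 and 19.6 CPM in the Cd36 libraries and 24.4 to 49.9 CPM in the Pdgfra+ libraries, with none of their genes called. Erythroid and platelet markers, mostly globins, summed to 316.1 and 625 CPM against 528.8 to 918 CPM, again with none called. Skeletal muscle markers summed to 41.4 and 43.8 CPM against 72.5 to 214.5 CPM. Myog, which commits myoblasts to muscle, was the one muscle marker of 12 called lower, at 0.727 and 1.27 CPM against 3.88, 7.29, 10.2 and 14.9 CPM, with an adjusted p of 0.055 and 0.033 without Cd36 library 1 and 2. Endothelial markers summed to 143.5 and 149.04 CPM against 105.8 to 118.9 CPM, and of these Pecam1 was called higher (95.3 and 115.6 CPM against 34.5, 29.96, 31.1 and 30.98 CPM) and Tek lower (2.23 and 0.871 CPM against 39.1, 48.2, 43.1 and 52.7 CPM), while the endothelial cadherin Cdh5 was at 2.38 and 3.28 CPM against 1.504, 0.985, 1.29 and 1.88 CPM. Pericyte and smooth muscle markers summed to 104.2 and 109.4 CPM against 338.2 to 662 CPM, with 6 of 10 lower. Cartilage and bone markers summed to 98.2 and 108.3 CPM against 318.8 to 511.02 CPM, with 5 of 10 lower. Of the neuronal, glial and keratinocyte markers, Gap43 was called lower (-4.11), Slc1a3 higher (1.58, not past the fold limit without Cd36 library 1) and no keratinocyte gene was called. The part of these cells in the differences above was not tested.

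The cultured Pdgfra+ libraries give a second view of the genes that marked the Cd36 sort. They had been cultured, and by their labels came from younger embryos than the fresh sorts (for the fresh Pdgfra+/Thy1- sort the age is uncertain, as above), so levels are set side by side with no test, as CPM scaled over all 18 libraries and with the lower Cd36 library first. The 6 ADM libraries fell into 2 sets of 3 by their like-named columns, which are given as 2 ranges. Ucp1 was at 112.6 and 155.7 CPM in the fresh Cd36 libraries, at 1931 to 2097 CPM in one set of ADM libraries and at 0 in all 3 libraries of the other. Elovl3 was at 0.399 and 0.867 CPM in the fresh Cd36 libraries and at 1666 to 1884 CPM and 1.88 to 4.24 CPM in the sets of ADM. In the set where they were high, both genes stood above the fresh Cd36 sort. So did Fabp4, Adipoq, Cidea, Cox7a1, Cox8b, Cpt1b, Gpd1 and Slc2a4, which were below it in the other set. Ebf2 and Hcar1 were below the fresh Cd36 sort in both sets. Dio2 was likewise lower in ADM, at 35.5 and 38.9 CPM in the fresh sort and 0 to 1.26 CPM and 0 to 0.433 CPM in ADM. Prdm16 (39.5 and 47.4 CPM against 3.103 to 3.77 CPM and 0.326 to 1.66 CPM) and Ppargc1a (239.3 and 276.9 CPM against 47.1 to 57.9 CPM and 0.454 to 2.28 CPM) were also higher in the fresh Cd36 libraries than in either set. Fasn, not called between the fresh sorts, was at 42.7 and 50.5 CPM in the fresh Cd36 libraries and at 2144 to 2724 CPM and 67.8 to 82.8 CPM in ADM. In DMEM, Ucp1 was at or under 0.623 CPM in all 6 libraries. Which set came from which Thy1 sort is not given by the column names. Thy1 transcript was at 2.39 to 5.53 CPM in the ADM set with high Ucp1 and at 27.5 to 36.1 CPM in the other. The set with high Ucp1 held the first of the like-named columns, whereas among the fresh libraries the first, 1a and 2a, had more Thy1. The order of the columns therefore cannot be carried over from the fresh to the cultured libraries, and the assignment was not tested.

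**Figure D5:**
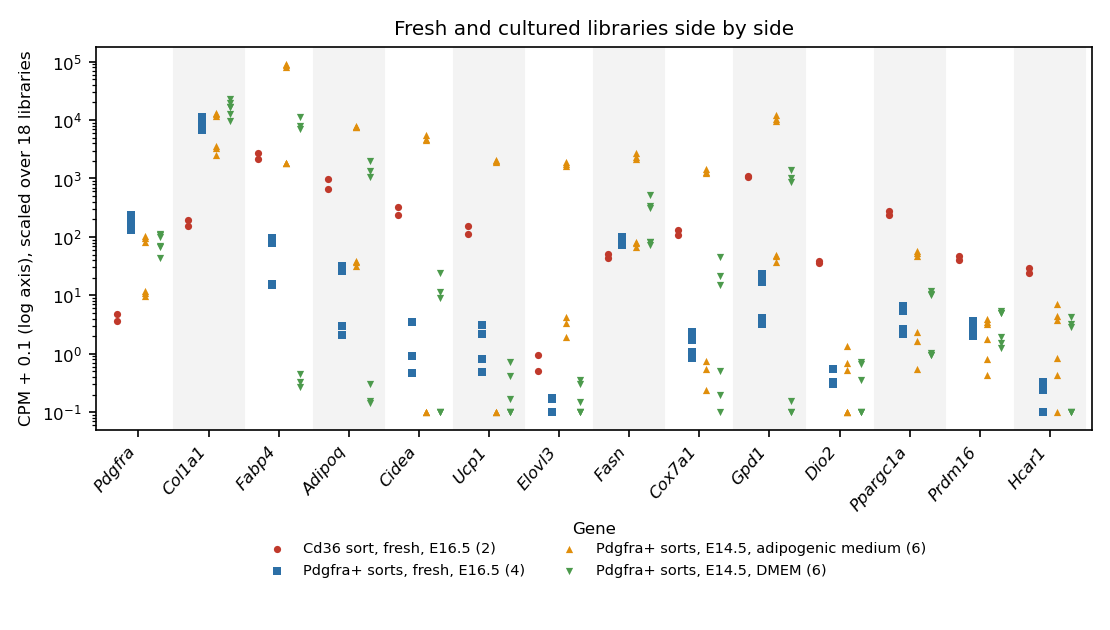
Level of 14 genes in the fresh Cd36 and Pdgfra+ libraries (labelled E16.5) and in the cultured Pdgfra+ libraries (labelled E14.5, ADM or DMEM, 6 each), in CPM + 0.1 on a log axis, scaled over 18 libraries. Ucp1 in 3 and Elovl3 in all 6 of the ADM libraries lie above the fresh Cd36 sort, whereas Dio2, Prdm16 and Hcar1 are higher in the fresh Cd36 sort.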

How the data were processed

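RNA from sorted cells had been amplified with a Smart-seq2-type protocol, tagged with Nextera XT and sequenced on a NextSeq 500. The authors deposited whole-number counts per gene for 18 bulk libraries, against mm10 (GRCm38), for 22938 genes. Every gene in the table had a count in at least 3 libraries. The submitters' processing notes name bcl2fastq, kallisto 0.44.0, STAR, Cell Ranger and Seurat, and which of them made the bulk counts, and whether strand was used, is not given in the sources used here. Counts of overlapping or antisense genes and of near-identical copies are therefore uncertain. All sample columns were mapped to a group (0 were left over), and of the 758 entries of the gene lists 735 were tested, 15 did not pass the filter on low counts and 8 were not analysed here. A gene counted among its list is not reported here by name.

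The 6 fresh libraries were fitted with edgeR 4.0.16 (R 4.3.3): filterByExpr, TMM scaling and the quasi-likelihood test of the Cd36 sort against the Pdgfra+ sorts, with no covariate. The 17545 genes that passed the filter were tested together. A gene was called at a Benjamini-Hochberg adjusted p under 0.01 and an absolute log2 fold change over 1.5. The SE of a log2 fold change is its size divided by the square root of F. Where a gene had no read in a group, a bound was set with 3 reads per library, and like the CPM of a low gene it covers counting error only. Libraries of one sort were not copies, since their counts differed by 23.8 to 40.03 times the sampling noise (chi-square over its degrees of freedom). The fit was tested on simulated counts with known changes. It called 66% of the changes of log2 size 2 and 89% of those of size 3, with 3 false calls. A gene that was not called can therefore be a missed change.

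The members of the gene lists were chosen with earlier results of these data known, and so were the libraries compared. Named in the text are the genes of the sort and of the study, up to 6 called members of each list with the largest change, up to 4 called against the direction of their list, all tissue isoforms, and the 10 genes with the largest rise and the 10 with the largest fall among called genes with at least 50 CPM in the higher group and no overlap. Members known for a role and not called are given by their values, and family members outside these rules were chosen after their values were seen. Gene positions are from GENCODE vM21, and promoters from RefSeq GRCm38.p6, where 12655 tested genes had one. Alternatives were DESeq2 1.42.0, other scaling factors, other filters, other limits, a block for the replicate number, each library left out and all 18 libraries in one fit. Tables and plots were made with Python 3.11.15, pandas 2.3.3 and matplotlib 3.10.9.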

Additional observations from a re-analysis of the deposited data

Results flagged for a closer look

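Of the levels looked at in the 4 Pdgfra+ libraries, 8 (4.28%) had 1 library whose gap to the other 3 was past Dixon's 95% limit. Chance gives about 1 in 20 only where all 4 libraries are alike and the levels are independent. These 4 libraries held a Thy1+ and a Thy1- sort and some levels share genes, so the 4.28% cannot be set against that rate. Library 2a was the high one for the contractile genes Acta2 (164.2 CPM, beside 42.8 to 59.9 CPM in the others) and Tagln (20.004 CPM, beside 14.1 to 14.8 CPM). It was also the high one for the summed pericyte and smooth muscle markers (662 CPM, beside 338.2 to 373.2 CPM), to which the pericyte gene Rgs5 gave 102.7 CPM in 2a and at most 8.15 CPM elsewhere. The same library was low for the growth hormone receptor Ghr, at 88.5 CPM. Library 1a was high for Dgat1 (17.1 CPM) and low for Notch3, a receptor of mural cells (19.3 CPM), 1b was low for Fosl2 (93.5 CPM) and 2b high for the complex II gene Sdha (285.5 CPM). These 7 genes were looked at because the naming rule had picked them as called genes. That both Cd36 libraries lay outside the range of all 4 Pdgfra+ libraries for each is therefore no finding. Of all genes tested, 30.9% had both Cd36 libraries above all 4 and 29.3% below.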

How the results depend on the processing

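No called gene named here turned its direction under any alternative. Leaving out 1 library gave 1042 to 1883 genes lower and 1048 to 1456 higher, against 1930 and 1507, the fewest lower without Cd36 library 1 (1042) or 2 (1047), where the lone Cd36 library is assumed to vary like the others. Members of all lists called lower then numbered 84 and 73. With all 18 libraries in the fit, 681 genes and 28 list members were higher and 29.9% of calls were rises, against 43.8%. With no limit on fold, 2488 genes were higher. DESeq2 called 1574 genes higher and 2859 lower (35.5% rises), and other scaling factors moved the median log2 fold change of all genes from -0.03 to -0.09 and -0.13. Whether the replicate numbers pair the samples is uncertain. Deviations of like-numbered libraries correlated with 0.22, -0.04 and 0.08, which cannot settle it with 2 libraries per sort. With a replicate block 1356 genes were higher and 1539 lower. Of the called named genes, 20 lost their call under the block, 38 and 41 without Cd36 library 1 and 2, 6 to 14 without a Pdgfra+ library and 0 to 2 under the other tool, scalings and filters. With one pair of Pdgfra+ columns alone, chosen after seeing the data, 1718 and 1605 genes were higher and 2263 and 2581 lower. The cause of these shifts was not tested. Depth limits the genes under about 1 CPM, and 2 technical duplicates of the Cd36 sort limit the rest.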

Other observations

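Gene families read by symbol were chosen after values were seen. Their counts are set beside the 8.59% of all genes tested that were called higher. Of 78 genes of the mitochondrial ribosome (Mrpl, Mrps) tested, 67 were called higher in the Cd36 sort and 0 lower, with a median log2 fold change of 2.12, and for 77 both Cd36 libraries lay above all 4 Pdgfra+ libraries. Of 84 genes of the cytosolic ribosome (Rpl, Rps), 1 was called higher (Rps27l) and 0 lower, with a median of 0.53, although for 67 the Cd36 libraries lay above all 4 others, beside 30.9% of all genes. Coenzyme Q carries electrons between the respiratory complexes, and 9 of 11 Coq genes were higher (median 2.80). Peroxisomes shorten very long fatty acids, and 9 of 17 peroxin genes (Pex) were higher (median 1.71). Of 39 proteasome genes, 3 were higher and 0 lower (median 0.49), so the share called higher was near that of all genes.

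Of 68 potassium channel genes (Kcn), 12 were lower, beside 11.0% of all genes tested, and 1 was higher, Kcnk3 of the thermogenic list (median -1.62). Of 45 collagen genes, 23 were lower and 1 was higher, Col27a1 (median -2.57).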
